A study of Homo sapiens with 12 samples.

Results

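The genes described here make or run the cytosolic ribosome, and 9 of the 61498 entries of the count tables were followed by name. They are the small-subunit proteins RPS6 and RPS15, the large-subunit proteins RPL36, RPL37 and RPLP2, the elongation factor EEF2, the assembly factors BRIX1 and NOL6, and the RNA methyltransferase NSUN2. They were listed by symbol, and what brought them together is that each lies in a chromosome stretch where gene names and read counts match. All 9 passed the filter on low counts (at least 1 CPM in at least 3 libraries; CPM is the count divided by the library total and multiplied by 1000000), as did 10800 entries in all.

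A ribosome is built in the nucleolus, where ribosomal RNA is copied, trimmed and chemically modified while ribosomal proteins are added. Assembly factors such as NOL6 and BRIX1 act on the growing particles and leave them before translation begins. The messenger RNAs of ribosomal proteins and elongation factors are among the most abundant of growing cells, and most of them start with a run of pyrimidines (the TOP motif) through which mTOR signalling sets how well they are translated.

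The RNA came from HaCaT, an immortal human keratinocyte line, in 4 derivatives that each express a short hairpin RNA. One hairpin targets MLL1 (encoded by KMT2A, which methylates lysine 4 of histone H3), one UTX (KDM6A, which demethylates lysine 27 of histone H3), one NRF2 (NFE2L2, the activator of antioxidant genes), and the control hairpin, shControl, is on cells labelled WT. Each derivative was exposed for 24 h to 100 µM hydrogen peroxide (H2O2), exposed for 24 h to 25 µg/mL cerium oxide nanoparticles (CeO2), or left untreated, with 1 library for each of the 12 combinations. The title states the question as expression in oxidative stress with and without these regulators. Each knockdown is a single derivative, and the sources used here do not give the hairpin sequence, its promoter or whether a derivative is 1 clone. Nothing in the labels says that the libraries are of separate cultures, so each p-value measures the spread between these libraries, which may be technical. For comparisons of derivatives and of exposures, that spread is what remains after an average effect of each derivative and each treatment. It is not a spread between replicates, and it includes any difference between derivatives in exposure response.

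Total counts ran from 5388335 to 7670446 per library, and levels are given as scaled CPM, in which each total is first corrected by edgeR's TMM factor. The targeted genes lie outside the matched stretches: KMT2A had 32.9 to 96.6 scaled CPM in shMLL1 cells against 472 to 509 in shControl cells, KDM6A had 0 to 1 counts in shUTX cells against 5 to 6 in shControl cells, and NFE2L2 had 0 counts in the 3 shNRF2 libraries against 1 to 16 in shControl cells. KMT2A was lower in shMLL1 cells (log2 change −3.25, edgeR adjusted p = 7.06e-07). It also lay lower in shUTX cells, at 299 to 346 scaled CPM, without a call (log2 change −0.59, edgeR adjusted p = 0.052). A fit without the untreated shControl library gave −0.49 there (edgeR adjusted p = 0.0385). The other targeted genes had too few counts to check the labels. Outside the matched stretches a count listed under a gene's name may belong to another place in the genome, and a 0 does not show that the gene is silent. This holds for the 3 targeted genes and for markers that lie outside the stretches. Of 8 keratinocyte markers, PKP3 (1563 to 2316 CPM), DSP, AQP3, KRT14 and KRT17 had counts in every library, KRT5 and KRT6A had none in any, and TP63 stayed at or under 0.848 CPM. Of 12 markers of other cell types, COL1A1 and COL1A2 (fibroblast) were at 0 in all 12 libraries, the melanocyte, endothelial and remaining fibroblast markers stayed at or under 2.59 CPM, and CD3E and PAX5 at or under 1.46 CPM. IL7R, from the T cell list, was between 216 and 278 CPM in shUTX cells and between 436 and 630 CPM in all other libraries, and its part in the shUTX results was not tested. In bulk RNA fewer cells of a type and less RNA per cell cannot be told apart. Many genes that all cells use were listed without counts: of 78 other cytosolic ribosomal protein genes, 55 were under 1 CPM and 7 reached 30 CPM. Whether the counts of the 9 genes are complete was not tested.

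One library stood apart from the others. In untreated shControl cells the 5 ribosomal protein genes summed to 12701 scaled CPM, against 7885 to 10993 in the other 11 libraries. Short transcripts in general were high in that library: among 336 other coding genes of the matched stretches, those shorter than 1 kb (32 genes) had a median log2 deviation of 0.43 from the mean of the shControl libraries, those of 1 to 3 kb (186 genes) 0.22, and those of 3 kb or longer (118 genes) −0.04. Untreated shMLL1 cells had the next highest sum, 10993 scaled CPM, and showed the same order by length at a smaller size. Their medians were 0.15, 0.09 and −0.02 from the mean of the shMLL1 libraries, and that library was kept. Because of the untreated shControl library, comparisons of the 9 genes with shControl cells, and counts of related gene lists, are also given without it. The exposure contrasts across derivatives are given without it for the ribosomal protein genes and for BRIX1.

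The start sites of these genes were searched for pyrimidine runs like that of the TOP motif. They are printed for the 7 genes found among the RefSeq promoters (GRCh38.p14), and RPL37 and NSUN2 are named only. A run near an annotated start need not begin the messenger RNA, so it does not settle which genes carry the motif. Each window spans 15 bases before and 15 bases after the annotated start, 5′ to 3′ on the gene's strand, with the longest run of C and T in capitals. The windows are chr9:19380222-19380251 (minus strand) for RPS6, chr19:1438381-1438410 (plus) for RPS15, chr19:5690280-5690309 (plus) for RPL36, chr11:809952-809981 (plus) for RPLP2, chr19:3985449-3985478 (minus) for EEF2, chr5:34915696-34915725 (plus) for BRIX1 and chr9:33473910-33473939 (minus) for NOL6.
RPS6: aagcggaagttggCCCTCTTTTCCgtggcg
RPS15: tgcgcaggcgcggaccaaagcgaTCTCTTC
RPL36: ccgcgcggcgccagCCCTTCCgccacggcc
RPLP2: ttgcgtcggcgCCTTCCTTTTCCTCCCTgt
EEF2: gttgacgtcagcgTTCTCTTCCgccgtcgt
BRIX1: gcagcgCCggaaaggaggccaagagcgcgg
NOL6: cttgggcctggagttaggcaTTTCCgccca
The run was 17 bases long in RPLP2, 11 in RPS6, 9 in EEF2 and 7 in RPS15 and RPL36, against 5 in NOL6 and 2 in BRIX1. A run of at least 7 bases was thus held by the 4 ribosomal protein genes and by EEF2, and by neither assembly factor; 20.2% of all 35116 RefSeq promoter windows of the same length hold one. In RPS6, RPL36, RPLP2 and EEF2 the run lay across the annotated start. In RPS15 it began at base 9 after the start and reached the last base of the window, so it may be cut short. The letters CGGAAG, the core of sites bound by ETS family factors, were searched on both strands of the 300 bases from 250 before to 50 after each start. All 7 genes hold them, RPS6 at 3 places, and so do 19.5% of all promoters; in RPL36 and EEF2 the match overlaps the pyrimidine run. These are letters in a window, and no binding was measured.

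The genes lie in 4 matched stretches (GRCh38, GENCODE 29 annotation). On chromosome 9, RPS6 spans 19375715 to 19380254 and NOL6 spans 33461441 to 33473930, both on the minus strand. On chromosome 19, RPS15 spans 1438358 to 1440494 and RPL36 5674947 to 5691876 on the plus strand, and EEF2 spans 3976056 to 3985469 on the minus strand. On chromosome 5, BRIX1 spans 34915376 to 34925996 on the plus strand, and RPL37 (40825262 to 40835335) and NSUN2 (6599239 to 6633291) lie on the minus strand. RPLP2 spans 809647 to 812880 on the plus strand of chromosome 11. The sources used here do not say whether counting was stranded. Reads of partners on the opposite strand therefore cannot be told apart from RPL36 (LONP1 and C19orf70), RPLP2 (PIDD1), BRIX1 (RAD1) and RPS6 (AL391834.2). RPL36 also overlaps HSD11B1L on its own strand. Small RNA genes overlap RPL37 (SNORD72), RPLP2 (SNORA52), EEF2 (SNORD37) and NOL6 (MIR6851) on the same strand. RPS6 has 13 named pseudogenes and RPL37 has 11, whose counts summed to 3.23 CPM and 31.8 CPM, so some of the reads of these genes may have been split with copies.

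Per kilobase of transcript, the 9 genes fell into a high and a low set. EEF2, the GTPase that moves the ribosome along the messenger RNA, averaged 4018 CPM per kb over the 12 libraries, RPS6 averaged 3192, RPS15 2800, RPLP2 2648, RPL36 2615 and RPL37 1446 CPM per kb. NSUN2 averaged 260.5 CPM per kb, NOL6 142 and BRIX1 136 CPM per kb. The coefficient of variation over libraries was 12.2% for RPS6, 16.5% for RPS15, 18.9% for RPLP2, 16.8% for RPL36, 20.5% for NOL6 and 22.4% for BRIX1. The order within RPS6, RPS15, RPLP2 and RPL36 and that of NOL6 and BRIX1 was not tested within libraries. It also depends on the transcript length used. EEF2 varied least, with a coefficient of variation of 5.12% and a highest library 1.19 times its lowest; the other 8 genes spanned 1.46 to 1.85 times.

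**Figure D1:**
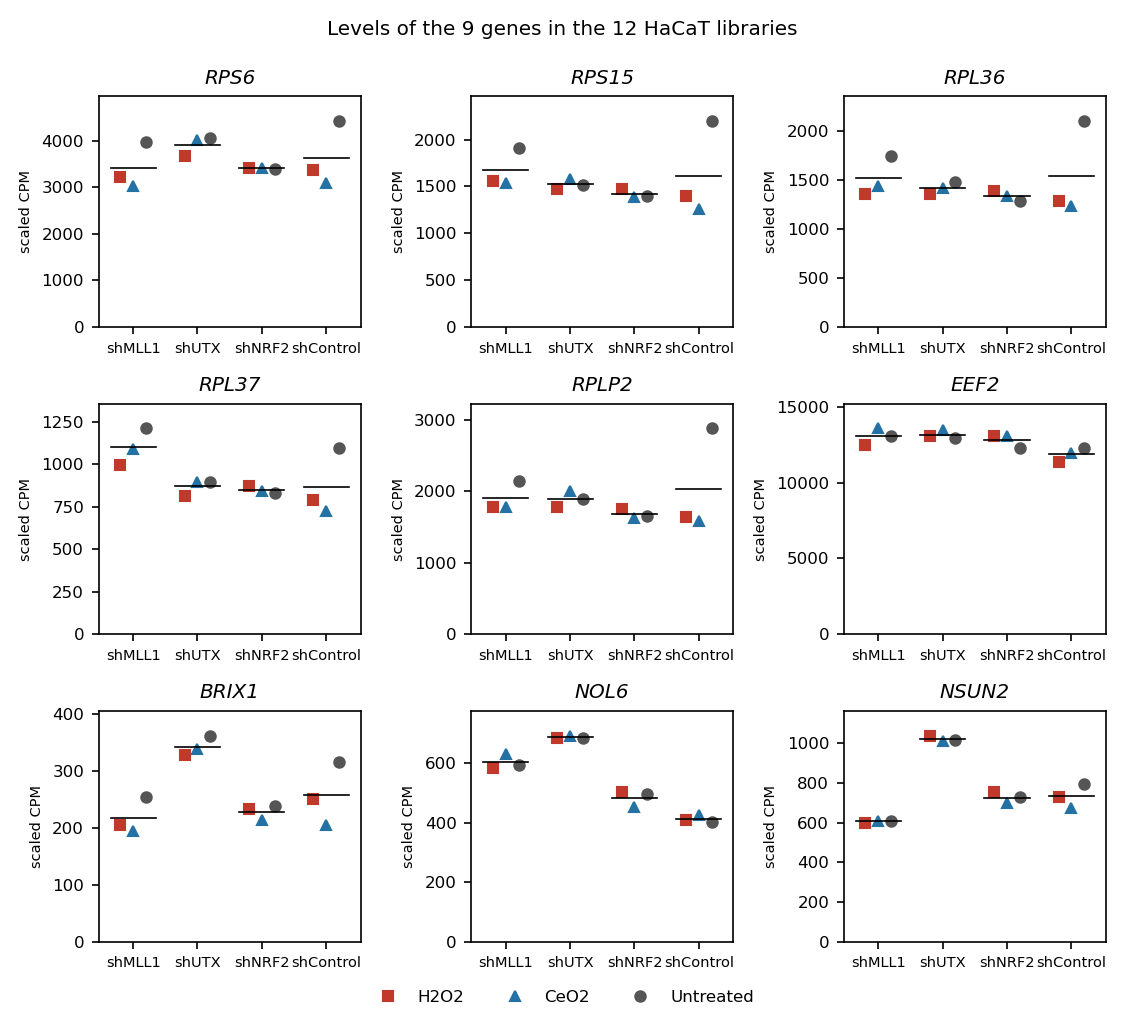
Levels of the 9 genes (scaled CPM, linear axis from 0) in shMLL1, shUTX, shNRF2 and shControl cells; squares are H2O2, triangles CeO2, circles untreated, and each bar is the mean of the 3 libraries of a derivative. The untreated shControl library is the highest of the 12 for RPS6, RPS15, RPL36 and RPLP2, while NOL6 separates by derivative. For NSUN2 the shUTX libraries lie above and the shMLL1 libraries below all others, and the shNRF2 range lies inside that of shControl.

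Among the small-subunit proteins, RPS6 is the substrate of the S6 kinases and RPS15 sits in the head of the subunit. RPS6 had 3215 (H2O2), 3027 (CeO2) and 3975 (untreated) scaled CPM in shMLL1 cells, 3673, 4006 and 4045 in shUTX cells, 3418, 3411 and 3397 in shNRF2 cells, and 3363, 3083 and 4421 in shControl cells, always in that order of treatment. The 3 shNRF2 libraries hardly differed, whereas the untreated library was the highest of its derivative in the other 3. RPS15 had 1557, 1541 and 1914 scaled CPM in shMLL1 cells, 1469, 1580 and 1514 in shUTX cells, 1470, 1386 and 1401 in shNRF2 cells, and 1393, 1256 and 2199 in shControl cells. The untreated shControl library was the highest of the 12 for both genes, and the ranges of every knockdown overlapped that of shControl.

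Of the large-subunit proteins, RPLP2 is an acidic protein of the stalk that recruits translation factors, RPL37 is one of the ribosomal proteins that can bind MDM2, and RPL36 is a small structural protein. RPLP2 had 1788, 1782 and 2145 scaled CPM in shMLL1 cells, 1785, 2001 and 1888 in shUTX cells, 1751, 1627 and 1652 in shNRF2 cells, and 1643, 1590 and 2881 in shControl cells. RPL36 had 1359, 1445 and 1747 scaled CPM in shMLL1 cells, 1361, 1416 and 1485 in shUTX cells, 1386, 1342 and 1284 in shNRF2 cells, and 1282, 1233 and 2105 in shControl cells. Both genes were low in exposed shControl cells and highest in untreated shControl cells. RPL37 had 995, 1091 and 1211 scaled CPM in shMLL1 cells, 813, 898 and 897 in shUTX cells, 873, 841 and 830 in shNRF2 cells, and 788, 723 and 1096 in shControl cells. It was higher in shMLL1 than in shControl cells under all 3 treatments, and the shMLL1 range lay above every library of shUTX and shNRF2.

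Against shControl, 1 of the 5 ribosomal protein genes passed the test in shMLL1 cells, none in shUTX cells and none in shNRF2 cells (edgeR quasi-likelihood, Benjamini-Hochberg adjusted p under 0.05 over 10800 entries). Of all 9 genes, 3 were called in shMLL1 cells, 3 in shUTX cells and 0 in shNRF2 cells. The shares of all entries called were 12.2%, 26.3% and 5.33% in that order. Shares were higher among the 345 tested coding entries of the matched stretches, the 9 genes included. There 27 were called higher and 83 lower in shMLL1 cells, 62 and 96 in shUTX cells, and 18 and 20 in shNRF2 cells. RPL37 rose in shMLL1 cells by a log2 change of 0.35 ± 0.11 (SE; edgeR adjusted p = 0.047), to a mean of 1099 ± 109 scaled CPM against 869 ± 199 in shControl cells (SD over the 3 treatments). That call sat at the threshold: it was lost with RLE scaling (edgeR adjusted p = 0.0594) and in 10 of 12 fits that left out 1 library. The other 4 ribosomal protein genes had log2 changes from −0.08 to 0.07 in shMLL1 cells, and the 5 had −0.09 to 0.12 in shUTX cells and −0.24 to −0.02 in shNRF2 cells.

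Without the untreated shControl library the same genes moved upward. That library had been set apart by the high sum of these 5 genes, so leaving it out must raise their changes against shControl. The move and the calls gained with it are therefore no separate support. In shMLL1 cells RPL37 then had a log2 change of 0.50 (edgeR adjusted p = 7.55e-05) and RPS15 of 0.29 (edgeR adjusted p = 0.0168), with 18.1% of all entries called. In shUTX cells RPS6 had 0.22 (edgeR adjusted p = 0.0482), with 28.7% of all entries called, and the other 4 genes had 0.12 to 0.19 without a call. In shNRF2 cells the 5 genes lay between 0.01 and 0.12 with no call.

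EEF2 was the steadiest of the 9. It had 12485, 13569 and 13079 scaled CPM in shMLL1 cells, 13035, 13441 and 12962 in shUTX cells, 13081, 13045 and 12245 in shNRF2 cells, and 11362, 11960 and 12277 in shControl cells. The shMLL1 and shUTX libraries all lay above the 3 shControl libraries, and the shNRF2 range overlapped them. The log2 changes against shControl were 0.14 ± 0.07 in shMLL1 cells, 0.15 ± 0.07 in shUTX cells and 0.11 ± 0.07 in shNRF2 cells (SE), none past the test (edgeR adjusted p = 0.251, 0.144 and 0.428). They were 0.16, 0.17 and 0.13 without the untreated shControl library, again with no call. Within a library, EEF2 was 0.967 times the sum of the 5 ribosomal protein genes in untreated shControl cells and 1.19 to 1.53 times that sum in the other 11 libraries.

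NOL6, a component of the small-subunit processome that prepares ribosomal RNA for the small subunit, had the largest log2 change of the 9 against shControl in shMLL1 and in shUTX cells. It had 584 (H2O2), 630 (CeO2) and 593 (untreated) scaled CPM in shMLL1 cells, 685, 692 and 684 in shUTX cells, 503, 451 and 495 in shNRF2 cells, and 409, 425 and 403 in shControl cells. The 4 derivatives did not overlap: every shUTX library was above every shMLL1 library, these above shNRF2, and these above shControl. NOL6 rose in shUTX cells by a log2 change of 0.74 ± 0.07 (SE; edgeR adjusted p = 7.27e-06) and in shMLL1 cells by 0.55 ± 0.07 (edgeR adjusted p = 0.000195). In shNRF2 cells the log2 change was 0.23 ± 0.07 and did not pass the test (edgeR adjusted p = 0.0948). Without the untreated shControl library the log2 changes were 0.71 in shUTX cells, 0.51 in shMLL1 cells and 0.20 in shNRF2 cells, with the same 2 calls. Leaving out any 1 library kept the shUTX value between 0.71 and 0.76 and the shMLL1 value between 0.51 and 0.57, all called.

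NSUN2, which methylates cytosines mainly in transfer RNA, moved in opposite directions in shUTX and shMLL1 cells. It had 598, 609 and 610 scaled CPM in shMLL1 cells, 1036, 1011 and 1017 in shUTX cells, 751, 696 and 729 in shNRF2 cells, and 728, 674 and 795 in shControl cells. The shUTX libraries lay above and the shMLL1 libraries below all others, and the shNRF2 range lay inside that of shControl. NSUN2 rose in shUTX cells by a log2 change of 0.48 ± 0.07 (SE; edgeR adjusted p = 0.000264) and fell in shMLL1 cells (log2 change −0.27 ± 0.07, edgeR adjusted p = 0.0254). In shNRF2 cells the log2 change was −0.01 ± 0.07 (edgeR adjusted p = 0.948). Without the untreated shControl library these were 0.53, −0.22 and 0.03, with the same 2 calls. The shMLL1 call was lost when the H2O2 shControl library (edgeR adjusted p = 0.0566) or any 1 shMLL1 library was left out (edgeR adjusted p = 0.0732 to 0.133).

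BRIX1, an assembly factor of the large subunit, was high in shUTX cells. It had 205, 195 and 254 scaled CPM in shMLL1 cells, 328, 338 and 362 in shUTX cells, 233, 214 and 238 in shNRF2 cells, and 250.4, 206 and 315 in shControl cells. All 3 shUTX libraries were above the other 9, and the untreated library was the highest within every derivative. BRIX1 rose in shUTX cells by a log2 change of 0.43 ± 0.10 (SE; edgeR adjusted p = 0.0039), and had −0.23 ± 0.10 in shMLL1 cells (edgeR adjusted p = 0.141) and −0.15 ± 0.10 in shNRF2 cells (edgeR adjusted p = 0.395). Without the untreated shControl library these were 0.52, −0.14 and −0.07, and the shUTX call stayed. A fit of the 6 shUTX and shControl libraries alone gave 0.43 with an edgeR adjusted p of 0.0587.

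**Figure D2:**
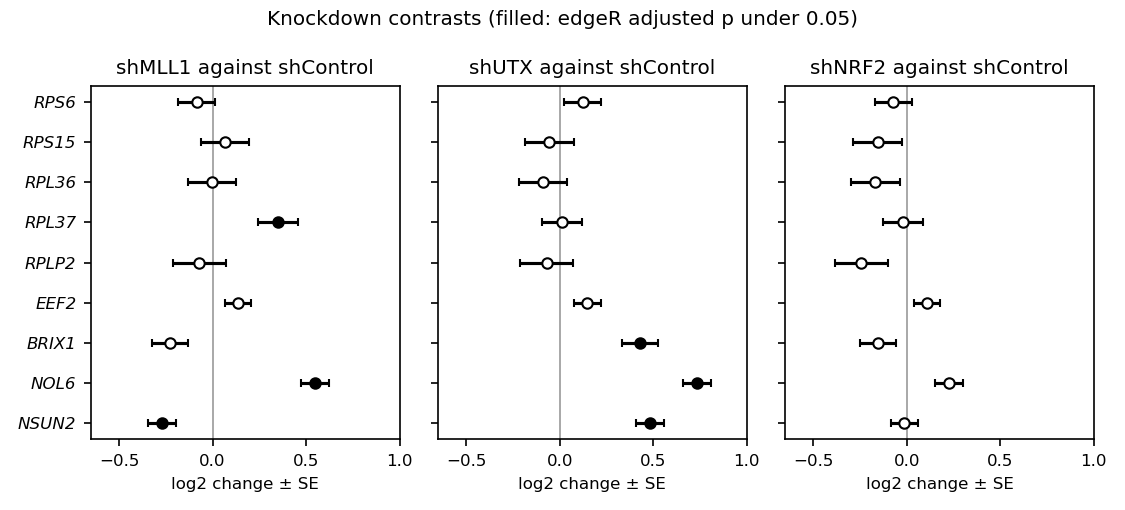
Log2 change of each gene (horizontal axis) in shMLL1, shUTX and shNRF2 cells against shControl cells across the 3 treatments, with bars of 1 SE and filled points where the edgeR adjusted p is under 0.05. NOL6 is at 0.55 in shMLL1 and 0.74 in shUTX cells, NSUN2 is at −0.27 in shMLL1 and 0.48 in shUTX cells, and no point is filled in shNRF2 cells.

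The knockdowns were also compared with each other, which does not involve the shControl levels (only the spread is shared). Of the 9 genes, 3 were called between shUTX and shMLL1 cells (18.0% of all entries were called), 3 between shNRF2 and shMLL1 cells (11.3% of all entries), and 3 between shNRF2 and shUTX cells (23.4% of all entries). Of the 345 tested coding entries of the matched stretches, 83 were called higher and 68 lower in shUTX against shMLL1 cells. These counts were 77 and 35 in shNRF2 against shMLL1 cells, and 80 and 72 in shNRF2 against shUTX cells. In shUTX against shMLL1 cells, NSUN2 was higher by a log2 change of 0.75 (edgeR adjusted p = 6.19e-06) and BRIX1 by 0.66 (edgeR adjusted p = 0.000211), while RPL37 was lower (−0.33, edgeR adjusted p = 0.0435). In shNRF2 against shUTX cells, BRIX1 (−0.59), NOL6 (−0.51) and NSUN2 (−0.49) were lower, with edgeR adjusted p-values of 0.000454, 0.000196 and 0.000229. These 5 calls on NSUN2, BRIX1 and NOL6 held whichever library was left out. Leaving out the untreated shControl library added calls on RPS6 (0.21, edgeR adjusted p = 0.0328) and NOL6 (0.19, edgeR adjusted p = 0.0228) in shUTX against shMLL1 cells, on RPS15 (−0.23, edgeR adjusted p = 0.0205) in shNRF2 against shMLL1 cells and on RPS6 (−0.20, edgeR adjusted p = 0.0342) in shNRF2 against shUTX cells. The shares of all entries called then rose too, to 27.8%, 21.0% and 33.5% in that order.

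In shNRF2 against shMLL1 cells, RPL37 (−0.37, edgeR adjusted p = 0.0388) and NOL6 (−0.32, edgeR adjusted p = 0.012) were lower and NSUN2 was higher (0.26, edgeR adjusted p = 0.0342). These calls were weaker than the others: RPL37 and NSUN2 each lost it in 8 of 12 fits that left out 1 library, and NOL6 in 3. The RPL37 call between shUTX and shMLL1 cells was lost in 9 of 12. The 6 pairwise contrasts share libraries and are not independent of each other.

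Other genes of ribosome production in the matched stretches were counted beside the 9. Of 8 listed, RMRP (the RNA of RNase MRP) had 0 counts in all 12 libraries and the other 7 were tested. Another entry named RMRP overlaps it on the same strand, so the 0 does not show that this RNA was absent. Beside the counts of the 7, 12.2% of all entries were called in shMLL1, 26.3% in shUTX and 5.33% in shNRF2 cells. In shMLL1 cells 1 of 7 was lower and none higher. The lower gene was DNAJC21, a cochaperone of late large-subunit maturation (log2 change −0.71, edgeR adjusted p = 2.95e-05). It had 203 to 216 scaled CPM in shMLL1 cells against 314 to 376 in shControl cells. In shUTX cells 1 of 7 was higher and none lower: POLR1E, a subunit of RNA polymerase I, had 205 to 237 scaled CPM against 167 to 190 in shControl cells (log2 change 0.28, edgeR adjusted p = 0.0275). In shNRF2 cells none of the 7 passed the test. The median log2 change of the 7 was 0.11 in shMLL1, 0.01 in shUTX and −0.10 in shNRF2 cells, against 0.01, 0.00 and 0.01 over all entries tested. These counts depended on the untreated shControl library. With it left out, 5 of the 7 were called higher and 1 lower in shMLL1 cells, 3 higher and 0 lower in shUTX cells, and 0 in shNRF2 cells, beside 18.1%, 28.7% and 6.95% of all entries. DNAJC21 was then at −0.69 in shMLL1 cells (edgeR adjusted p = 2.76e-07), and POLR1E was at 0.33 in shUTX cells (edgeR adjusted p = 0.00395).

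Of 6 other translation genes, 2 were called in shMLL1 cells and none in shUTX or shNRF2 cells, beside the same shares of all entries (12.2%, 26.3% and 5.33%). TARS1, the threonyl-tRNA synthetase, had 1443 to 1606 scaled CPM in shMLL1 cells against 1947 to 2447 in shControl cells (log2 change −0.59, edgeR adjusted p = 0.000213). DUS3L, a dihydrouridine synthase of transfer RNA, had 220 to 249.98 scaled CPM in shMLL1 cells against 160 to 217 in shControl cells, with ranges that do not overlap (log2 change 0.37, edgeR adjusted p = 0.0215). With the untreated shControl library left out, TARS1 was at −0.58 (edgeR adjusted p = 5.01e-06) and DUS3L at 0.49 (edgeR adjusted p = 9.76e-05) in shMLL1 cells. Of the 6 genes, 2 were then called higher and 1 lower in shMLL1 cells, 2 higher in shUTX cells and 1 lower in shNRF2 cells, beside 18.1%, 28.7% and 6.95% of all entries.

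Neither exposure moved any of the 9 genes past the test. For H2O2 against untreated cells, the log2 changes of the 5 ribosomal protein genes lay between −0.28 and −0.21 (edgeR adjusted p = 0.202 for RPL36 to 0.2499 for RPS15), those of BRIX1, EEF2, NSUN2 and NOL6 at −0.21, −0.02, −0.02 and 0.01. For CeO2 against untreated cells the ribosomal protein genes lay between −0.28 and −0.19, BRIX1 was at −0.31 (edgeR adjusted p = 0.197), NSUN2 at −0.08, EEF2 at 0.04 and NOL6 at 0.01. Few entries of the whole table passed: 0 of 10800 entries (0.0%) were called for H2O2 and 2 (0.0185%) for CeO2 by edgeR, 2102 and 1889 had an unadjusted p under 0.05, DESeq2 called 124 and 44, and limma-voom called 0 for either. DESeq2 and limma-voom called none of the 9 genes.

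The exposed-to-untreated ratios of the ribosomal protein genes depended on the derivative. The median log2 ratio of the 5 genes was −0.30 (H2O2) and −0.27 (CeO2) in shMLL1 cells, −0.13 and 0.00 in shUTX cells, 0.07 and 0.01 in shNRF2 cells, and −0.66 and −0.77 in shControl cells. In shControl and shMLL1 cells all 5 genes were below their untreated level with both agents. In shUTX cells 5 of 5 were below it with H2O2 and 2 of 5 with CeO2. In shNRF2 cells none was below it with H2O2 and 2 of 5 were with CeO2. Without the untreated shControl library the log2 changes across derivatives shrank to between −0.14 and −0.08 for H2O2 and between −0.16 and −0.08 for CeO2. BRIX1 was then at −0.14 for H2O2 and −0.25 for CeO2, and there was no call. For the ribosomal protein genes the shrinkage follows from leaving out a library set apart by their high sum.

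A model in which each knockdown could change the effect of exposure (H2O2 and CeO2 pooled) tested whether the exposure response differed from that of shControl cells. With 3 residual degrees of freedom it is exploratory. Each untreated library is fitted exactly in this model, and the spread comes only from differences between H2O2 and CeO2 libraries. Beyond counting error, its SEs and p-values therefore hold no spread between untreated libraries. Of the 5 ribosomal protein genes, 1 was called higher in shMLL1, 5 in shUTX and 5 in shNRF2 cells, relative to the response of shControl cells. In shMLL1 cells all 5 differences were above 0 (0.11 to 0.57); EEF2, BRIX1, NOL6 and NSUN2 were not called in any. The shares of all entries called were 0.648% for shMLL1, 14.4% for shUTX and 16.6% for shNRF2. Of the 345 tested coding entries of the matched stretches, 7 were called higher and 0 lower in shMLL1 cells. These counts were 86 and 11 in shUTX cells and 99 and 16 in shNRF2 cells. RPLP2 had the highest difference of log2 response in each: 0.57 ± 0.12 in shMLL1 cells (SE; edgeR adjusted p = 0.0364), 0.84 ± 0.12 in shUTX cells (edgeR adjusted p = 0.000207) and 0.87 ± 0.12 in shNRF2 cells (edgeR adjusted p = 0.00011). RPS6 had the lowest of the 5 in shUTX cells, at 0.38 ± 0.11 (edgeR adjusted p = 0.03), and in shNRF2 cells, at 0.46 ± 0.11 (edgeR adjusted p = 0.00905). RPS15, RPL36 and RPL37 lay between 0.47 and 0.74 in shUTX cells and between 0.58 and 0.83 in shNRF2 cells. With plain library totals the calls were lost on RPS6 in shUTX cells (edgeR adjusted p = 0.173), RPL37 in shUTX cells (edgeR adjusted p = 0.0855) and RPS6 in shNRF2 cells (edgeR adjusted p = 0.0588). The RPS6 call in shUTX cells was also lost without the H2O2 shMLL1, CeO2 shMLL1 or CeO2 shUTX library (edgeR adjusted p = 0.071 to 0.148), and the RPL37 call in shUTX cells without the CeO2 shUTX library (edgeR adjusted p = 0.0919). The RPLP2 call in shMLL1 cells was lost with a 5 CPM filter (edgeR adjusted p = 0.0504) and without any 1 of the exposed shMLL1 or shUTX libraries (edgeR adjusted p = 0.0681 to 0.219). Of the 7 other genes of ribosome production 1 was called higher in shMLL1, 4 in shUTX and 4 in shNRF2 cells. Of the 6 other translation genes 0, 3 and 3 were called higher in that order. BRIX1 gained a call in shNRF2 cells with RLE scaling (difference 0.40, edgeR adjusted p = 0.0446). Without the H2O2 shControl library BRIX1 was also called, at 0.48 in shUTX and 0.50 in shNRF2 cells.

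These differences rest on 1 library. Each is a knockdown's response minus that of shControl cells, whose only untreated library is the one that stood apart, and without it the contrast has no value. The median difference of log2 response over other coding genes shorter than 1 kb was 0.46 in shMLL1, 0.73 in shUTX and 0.67 in shNRF2 cells, and over those of 3 kb or longer it lay within 0.05 of 0 in all 3. RPS15 and RPL36 (both 556 bases), RPL37 (637) and RPLP2 (709) fall in the short class by the median length of their coding transcripts, and RPS6 (1124 bases) just outside it; EEF2 (3164), NOL6 (3843), NSUN2 (2961) and BRIX1 (1926) do not.

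**Figure D3:**
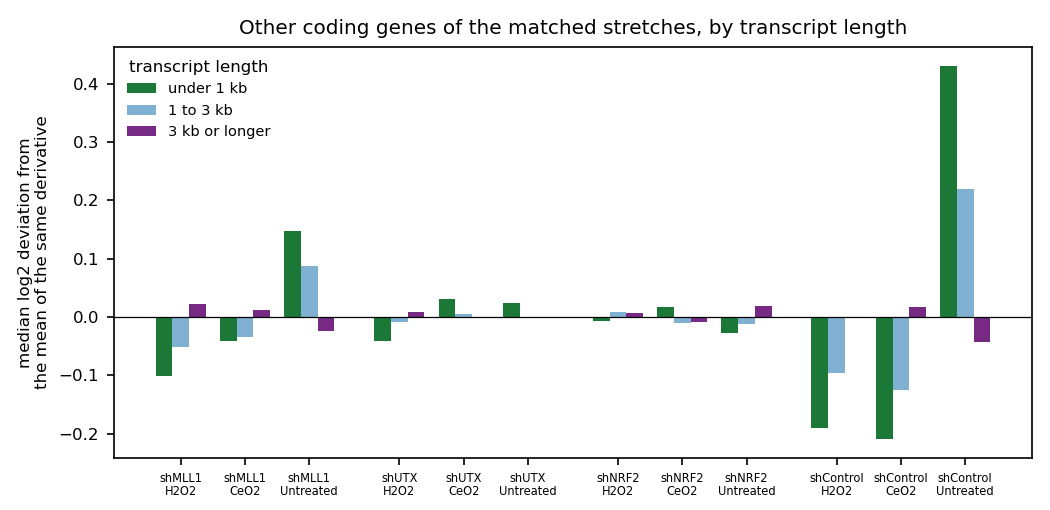
Median log2 deviation from the mean of the same derivative (vertical axis) for 336 coding genes of the matched stretches other than the 9, in each library (horizontal axis), by transcript length. Genes under 1 kb stand at 0.43 in untreated shControl cells and at −0.19 and −0.21 in H2O2 and CeO2 shControl cells. In shMLL1 cells they stand at 0.15 (untreated), −0.10 (H2O2) and −0.04 (CeO2). In the shUTX and shNRF2 libraries all classes lie within 0.05 of 0.

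To read the 9 genes against transcripts of their own length, the fit was repeated after taking out of each library the trend of its log2 CPM along transcript length, drawn through those 336 genes. None of the 11 calls on exposure response remained: RPLP2 was at 0.04 in shMLL1 cells (edgeR adjusted p = 0.894), 0.21 in shUTX cells (edgeR adjusted p = 0.262) and 0.15 in shNRF2 cells (edgeR adjusted p = 0.41), and the other 4 ribosomal protein genes lay between −0.28 and −0.17 in shMLL1, between −0.18 and 0.06 in shUTX and between −0.16 and 0.04 in shNRF2 cells. Removing the trend also shifted the median of all entries tested, to −0.12 in shMLL1, −0.16 in shUTX and −0.17 in shNRF2 cells. As counted it was −0.02 in all 3. The trend was not centred on 0, so taking it out also removed the level of the 336 genes in each library. Outside the matched stretches the length was that of the listed name, and entries without a length were not shifted. Medians, shares and adjusted p-values of this fit carry these limits. Over the whole table calls were still made, at 2.86%, 15.5% and 18.0% of entries for shMLL1, shUTX and shNRF2. For the exposures across derivatives the ribosomal protein genes then lay between −0.05 and 0.02 with H2O2 and between −0.08 and 0.01 with CeO2.

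**Figure D4:**
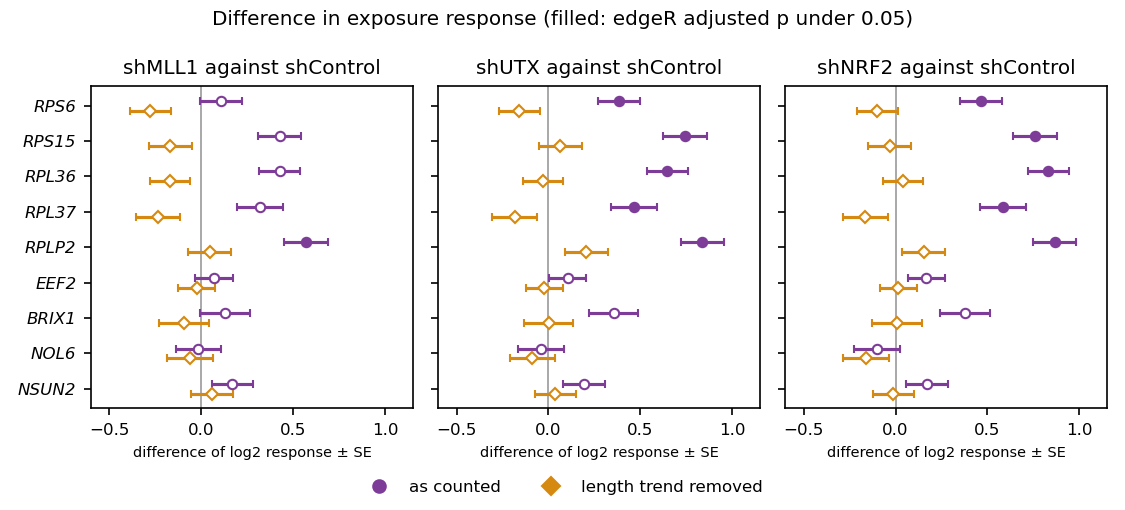
Exposure response in each knockdown minus that in shControl cells (log2, horizontal axis) for the 9 genes, as counted (circles) and with the length trend removed (diamonds), with bars of 1 SE and filled markers where the edgeR adjusted p is under 0.05. Filled circles stand for RPLP2 in shMLL1 cells and for the 5 ribosomal protein genes in shUTX and shNRF2 cells, and no diamond is filled.

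The knockdown calls on NOL6, NSUN2 and BRIX1 were kept without the length trend. With the trend removed, NOL6 had a log2 change of 0.64 in shMLL1 and 0.75 in shUTX cells, NSUN2 −0.20 and 0.53, and BRIX1 0.55 in shUTX cells, all still called (edgeR adjusted p = 0.0404 for NSUN2 in shMLL1 cells and at most 0.000151 for the others). NOL6 in shNRF2 cells, at 0.29, then passed the test (edgeR adjusted p = 0.0287). The ribosomal protein genes shifted upward: in shMLL1 cells RPL37 was at 0.51 (edgeR adjusted p = 0.000537) and RPS15 at 0.26 (edgeR adjusted p = 0.0231), and in shUTX cells RPS6, RPL37, RPS15 and RPL36 were at 0.29, 0.27, 0.23 and 0.20, all called (edgeR adjusted p = 0.00806 to 0.0325). EEF2 was called as well, at 0.22 in shMLL1 cells (edgeR adjusted p = 0.0149) and 0.18 in shUTX cells (edgeR adjusted p = 0.0223), where it had 0.14 and 0.15 as counted. The median of all entries tested shifted upward as well, to 0.07 in shMLL1, 0.05 in shUTX and 0.05 in shNRF2 cells, against 0.01, 0.00 and 0.01 as counted, so the call on EEF2 came with a shift close to that of all entries. The shares of all entries called were then 14.8% for shMLL1, 26.1% for shUTX and 4.77% for shNRF2. As counted, RPS15 and RPL36 were at −0.06 and −0.09 in shUTX cells, so their direction in that contrast depends on this step.

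Between knockdowns, removing the trend kept all 9 calls on these genes and added others. RPS6 was then higher in shUTX than in shMLL1 cells (0.30, edgeR adjusted p = 0.00917; 17.4% of all entries called). In shNRF2 against shMLL1 cells RPS15 (−0.28) and RPL36 (−0.22) were lower (edgeR adjusted p = 0.0188 and 0.0363; 13.6% of all entries called). In shNRF2 against shUTX cells RPLP2 (−0.29), RPS6 (−0.26), RPS15 (−0.25) and RPL36 (−0.23) were lower (edgeR adjusted p = 0.00828 to 0.0213; 23.5% of all entries called).

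Across the 12 libraries, which share derivatives and treatments, the ribosomal protein genes varied together to different degrees. The Pearson r of log2 scaled CPM over the 10 pairs of ribosomal protein genes ran from 0.38 (RPS6 with RPL37) to 0.97 (RPS15 with RPL36), with a median of 0.79. With EEF2 the median r of the 5 genes was 0.18, with BRIX1 0.40, with NOL6 0.04 and with NSUN2 0.03. RPS6 had the highest r of the 5 with both BRIX1 (0.85) and NSUN2 (0.58), and the first is above its r with any ribosomal protein gene. The untreated shControl library contributes to every pair of ribosomal protein genes. Profiles over the 12 libraries were then compared with 299 other coding entries of the matched stretches with at least 5 CPM. Most like the mean of the 5 ribosomal protein genes were MYDGF (r 0.95, transcript length 865.5 bases), POLR2E (r 0.95, 1422.5 bases) and UQCR11 (r 0.95, 753 bases). Untreated shControl cells were also the highest library for POLR2E (896 scaled CPM). How far that library and transcript length make up these matches was not tested. Most like NOL6 were ZBTB7A (r 0.94), PRKAA1 (r 0.94) and REXO1 (r 0.91). Most like EEF2 were UHRF1 (r 0.88), PHRF1 (r 0.80) and TICAM1 (r 0.78).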

How the data were processed

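The submitters' processing notes list HISAT2 2.2.1, HTSeq 0.11.1, Trimmomatic 0.39 and SAMtools 1.12 and name GRCh38; the annotation was not given in the sources used here. Unnormalised counts of reads by Ensembl identifier were deposited by the authors, with a table for each agent; untreated libraries stand in both tables, differ in 1 cell, and were read from that for H2O2. Of 61498 identifiers 61399 had a symbol and 58298 were in GENCODE 29. Total counts of 5388335 to 7670446 put the limit that a count of 0 allows (3 counts) at 0.391 to 0.557 CPM; this covers counting error only.

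The 9 genes, the other gene lists and the tests were chosen with earlier results of these data known. Gene names were used only in 4 stretches found along the chromosomes by a hidden Markov model of 2 states over 523 genes that every cell uses; 7 of the 9 genes are in that panel, so their own levels are no check of it, and its settings were chosen after seeing the data. The targeted genes and the cell type markers were read wherever they lie. One further marker is not reported here. Named are all 9 genes, those of the lists that passed a test, and the 3 profiles most like each of 3 profiles.

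The 10800 entries that reached 1 CPM in 3 or more libraries were scaled by TMM and fitted with edgeR 4.0.16 (R 4.3.3; quasi-likelihood, two-sided, Benjamini-Hochberg threshold 0.05) with derivative and treatment as additive terms (6 residual degrees of freedom), and for the exposure response in a model with 3. Levels are scaled CPM, and exposed-to-untreated ratios use them. The code was tested on simulated counts. Other settings were RLE, upper-quartile and plain scaling, no filter, a filter at 5 CPM, DESeq2 1.42.0, limma-voom (limma 3.58.1), the libraries compared alone, the other table's untreated counts, each library left out, and a lowess trend with transcript length (median of a gene's coding transcripts) used as an offset.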

Additional observations from a re-analysis of the deposited data

Results flagged for a closer look

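The response to exposure differed between a knockdown and shControl cells, by a test of the difference itself (edgeR, adjusted p under 0.05), for 11 pairs of gene and knockdown; over all entries tested, 0.648% were called in shMLL1, 14.4% in shUTX and 16.6% in shNRF2 cells. In shMLL1 cells the difference of log2 response was 0.568 for RPLP2. In shUTX cells it was 0.8372 for RPLP2, 0.7423 for RPS15, 0.6465 for RPL36, 0.4671 for RPL37 and 0.3819 for RPS6. In shNRF2 cells it was 0.865 for RPLP2, 0.83 for RPL36, 0.7586 for RPS15, 0.582 for RPL37 and 0.464 for RPS6. All 11 share the untreated shControl library, in which short transcripts stood high, and none was called once the trend with transcript length was removed. Beyond counting error, the test of these 11 holds no spread between untreated libraries.

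BRIX1 in the CeO2 libraries is listed because 1 of the 4 values lay far from the rest: 337.8 scaled CPM in shUTX cells, against 195 to 214 in the libraries of the other 3 derivatives. The 4 libraries are of different derivatives, and chance alone marks about 1 in 20 such groups.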

How the results depend on the processing

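No paired analysis was possible because the labels give no replicate numbers; treatment is a term of the fit, so derivatives were compared within treatments. Over the 9 genes, 909 values kept their side of the threshold under the other settings, 33 gained a call, 13 lost one and 8 changed sign with a call under at least 1 of the settings; with 1 library left out, 1017 kept it, 13 gained and 50 lost one. Among values called under neither setting, 41 and 53 changed sign.

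All 8 reversals came with the length trend removed: RPS15 0.23 and RPL36 0.20 in shUTX against shControl cells, and, for the exposure response, RPS6 −0.16, RPL36 −0.031 and RPL37 −0.18 in shUTX and RPS6 −0.10, RPS15 −0.032 and RPL37 −0.16 in shNRF2 cells. With no filter, RPS6, RPS15, RPL36 and RPLP2 were called lower with H2O2 and with CeO2, as was BRIX1 with CeO2.

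Counts of entries called moved by over 1.5 times as follows, and the cause was not tested. For CeO2 (2), DESeq2 gave 44, no filter 543, and a 5 CPM filter, limma-voom, the compared libraries alone, plain totals and length removal 0; leaving out 1 library gave 0 to 29. For H2O2 (0), DESeq2 gave 124, no filter 651, the compared libraries alone 3, and leaving out 1 library 0 to 43. For the exposure response in shMLL1 (70), DESeq2 gave 27, a 5 CPM filter 33, no filter 218, plain totals 141, length removal 309 and leaving out 1 library 4 to 676. In shUTX (1554) DESeq2 gave 658 and leaving out 1 library 822 to 2102, and in shNRF2 (1794) DESeq2 gave 673; leaving out an untreated library of either derivative compared gives no value. The compared libraries alone gave 1427 for shUTX and 154 for shNRF2 against shControl, 2955 for shUTX and 1991 for shNRF2 against shMLL1, and 4351 for shNRF2 against shUTX; no filter gave 907 for shNRF2 against shControl. Leaving out 1 library gave 667 to 1941 for shMLL1 and 257 to 830 for shNRF2 against shControl, 1169 to 2989 for shUTX and 598 to 2251 for shNRF2 against shMLL1, and 1652 to 3604 for shNRF2 against shUTX. In the exposure response the median of all entries was −0.12 to −0.19 with plain totals against −0.02 with TMM, and the split of higher to lower calls was 338 to 1243 in shUTX and 345 to 1398 in shNRF2 cells, against 734 to 820 and 866 to 928 with TMM; in shMLL1 cells it was 23 to 118 with plain totals and 24 to 28 with upper-quartile scaling, against 41 to 29. Plain totals also gave 726 to 1264 for shUTX against shMLL1 (918 to 1022 with TMM) and 1661 to 863 for shNRF2 against shUTX (1374 to 1155). Length removal gave 991 to 609 for shMLL1 (581 to 739) and 1589 to 1231 for shUTX (1364 to 1478) against shControl, 644 to 827 for shNRF2 against shMLL1 (720 to 499), and 57 to 252, 434 to 1244 and 539 to 1406 for the exposure response in shMLL1, shUTX and shNRF2 cells.

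With 1 library per combination, differences within a derivative have no replicate check. KDM6A and NFE2L2 lie at counts too low to compare.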
